A study of Solanum lycopersicum with 8 samples.

Results

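Tomato leaves sprayed with neutralized phosphorous acid (NPA) were compared with leaves sprayed with water 12 h after spraying. NPA is phosphorous acid, here 1 g per litre, brought to pH 6.3 with potassium hydroxide, and the water was double-distilled. The comparison used the 4 arrays whose titles place them at 12 h, which were NPA 12 h repeats 1 and 2 and water 12 h repeats 1 and 2, of 8 arrays in the series. The other 4 arrays hold NPA and water leaves at 6 h, and they entered the estimate of the spread used in the tests. All plants were Solanum lycopersicum cultivar Summer sweet, with no age or mutation named. Each array, an Affymetrix Tomato Genome Array, carried leaf RNA pooled from 5 plants, so the spread between plants of a pool was not measured. The 2 repeats came from separate runs of the full experiment. Values are deposited log2 expression values, on which a difference of 1 is 2-fold, and levels of different probe sets are set side by side only as a rough check of tissue. The array measures abundance in whole-leaf RNA, so fewer cells of a type and less RNA per cell cannot be told apart.

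Phosphorous acid gives phosphite, an ion that plants take up much like phosphate but do not use as a nutrient, and that is sprayed on crops against downy mildews and Phytophthora. Leaves attacked by microbes make pathogenesis-related (PR) proteins, among them PR-1 proteins, chitinases, glucanases and osmotin-like proteins, many of them downstream of salicylic acid. Wounded tomato leaves make another set downstream of jasmonate, which includes leucine aminopeptidase, threonine deaminase and arginase. Plants short of phosphate make ribonucleases, acid phosphatases and phosphate transporters.

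The arrays hold 8488 probe sets, and 8404 were tested after removal of 84 controls. A gene symbol was given for 753 (688 genes), and 7651 had none. Leaf identity was checked on proteins of photosystem II. PSBO stood at 13.89 and 13.92 on the NPA arrays and at 13.90 and 13.90 on the water arrays, and PSBR at 14.30 and 14.26 under NPA and 14.29 and 14.31 under water. Both lay near the top of the scale on every 12 h array. MTS1, a monoterpene synthase of glandular trichomes, stood at 3.36 and 3.81 on the NPA arrays and at 3.30 and 3.46 on the water arrays, near the lowest values on the arrays. Of the genes listed as markers of other organs 3 were matched by symbol or synonym, and none was at the lowest values. RSI-1, listed for root, stood at 6.96 and 6.88 under NPA against 7.21 and 7.24 under water. TPRP-F1, from the same marker list, stood at 5.19 and 7.76 under NPA against 6.43 and 7.20 under water. TDR6, a MADS-box gene listed for flower, stood at 8.54 and 9.11 under NPA against 8.65 and 8.17 under water. Their part in the results was not tested.

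The median NPA minus water difference of all probe sets was -0.03. The control probe sets divided. All 36 probe sets for the Bacillus genes dap, lys, phe and thr, bacterial sequences that are commonly added to RNA as a control of labelling, were lower on the NPA array in both repeats at 12 h, with medians of -0.84 and -0.89. The 27 hybridization controls (bioB, bioC, bioD and cre) had medians of -0.15 and -0.05. Of these, 25 were lower and 2 higher in repeat 1, and 19 were lower and 8 higher in repeat 2. The 14 tomato actin, GAPDH, EF1a and ubiquitin controls had medians of 0.07 and -0.01. They ranged from -0.53 to 0.35 in repeat 1 and from -0.37 to 0.17 in repeat 2. Among them the ubiquitin probe sets were lower under NPA in both repeats, and the GAPDH probe sets were higher. Scaling every array on the Bacillus controls moved the median of all probe sets to 0.84. Whether the Bacillus RNA was added, and in what amount, no source used here gives, and its part in the results was not tested. Under that scaling the differences below 0 named in the text lie above 0 or nearer to it, so every lower value is relative to the deposited normalization.

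**Figure D1:**
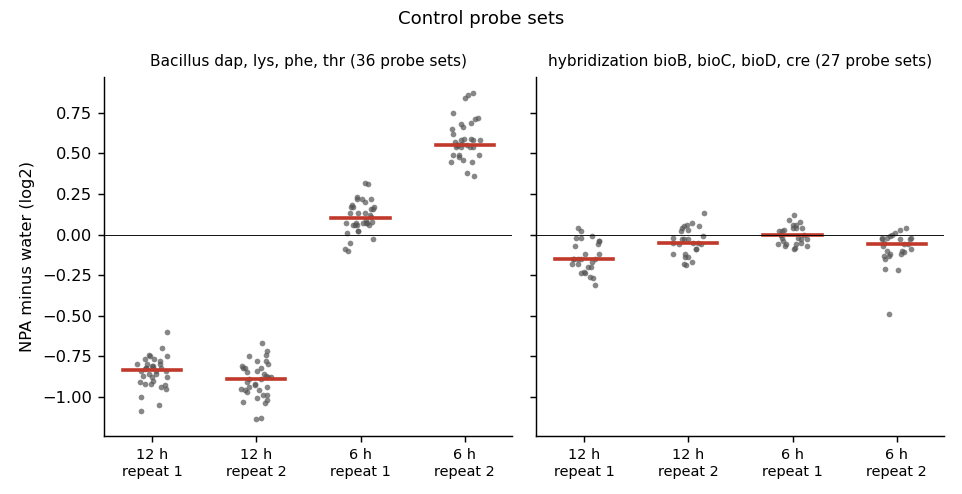
NPA minus water difference (log2) of each control probe set in each repeat, at 12 h and at 6 h, with horizontal bars at the medians. The 36 Bacillus controls all lie below 0 in both 12 h repeats and have medians of 0.10 and 0.56 in the 6 h repeats, and the 27 hybridization controls have medians between -0.15 and 0.

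The comparison asked which leaf transcripts NPA had moved by 12 h. RNALE encodes an S-like ribonuclease that plants make when wounded or short of phosphate, and it rose under NPA. It stood at 8.64 and 8.09 on the NPA arrays and at 4.73 and 4.79 on the water arrays. Both NPA arrays lay far above both water arrays, and the repeats gave differences of 3.91 and 3.30. The mean difference was 3.61 (SE 0.27, n = 2 per group, spread estimated from all 8 arrays), a 12.2-fold difference (limma adjusted p = 0.0483). RNALE was the only probe set called, 0.0119% of those tested, and no probe set was called lower. At an unadjusted p under 0.05 limma gave 425 higher (5.06%) and 386 lower (4.59%). With the repeat as a block no probe set was called, RNALE had adjusted p = 0.158 and 1537 probe sets had an unadjusted p under 0.05, against 811 without the block. With only the 12 h arrays limma called 0 probe sets, and RNALE had adjusted p = 0.391. A single gene tested by permutation of 2 arrays against 2 cannot go below an exact two-sided p of 0.333.

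With so few calls, size in both repeats was used to describe the response. In the 2 repeats 47 probe sets, 0.559% of all, were at least 2-fold higher under NPA, and 1 probe set (0.0119%) was at least 2-fold lower. The 47 included 18 with a gene symbol, for 18 genes. The NPA arrays lay above both water arrays for 46 of the 47, against 17.1% of all probe sets. The choice by size in both repeats made this likely, so it is no separate result. The median difference of the 47 was 2.74 in repeat 1 and 1.51 in repeat 2, and 40 of the 47 differed more in repeat 1. The NPA array of repeat 1 was the higher of the NPA arrays for 42 of them, while the water array of repeat 1 was the lower of the water arrays for 13. The same counts were not taken over all probe sets, where differences were also wider in repeat 1 (SD 0.466, against 0.360 in repeat 2). At 3-fold in both repeats 16 probe sets (0.190%) were higher and 0 lower, and at 1.5-fold 166 (1.98%) were higher and 36 (0.428%) lower. In repeat 1 taken alone 205 (2.44%) were at least 2-fold higher and 53 (0.631%) lower, and in repeat 2 alone 137 (1.63%) were higher and 23 (0.274%) lower.

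Over all 8404 probe sets the differences of the 2 repeats had the same sign for 5663 (67.4%) and opposite signs for 2471. Pearson's r between them was 0.504 across probe sets, a description only, since probe sets are not replicates and the points of a repeat share their arrays. The differences had an SD of 0.466 in repeat 1 and 0.360 in repeat 2. More probe sets lay below water in both repeats (3181) than above it (2482), although the large differences lay above it.

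**Figure D2:**
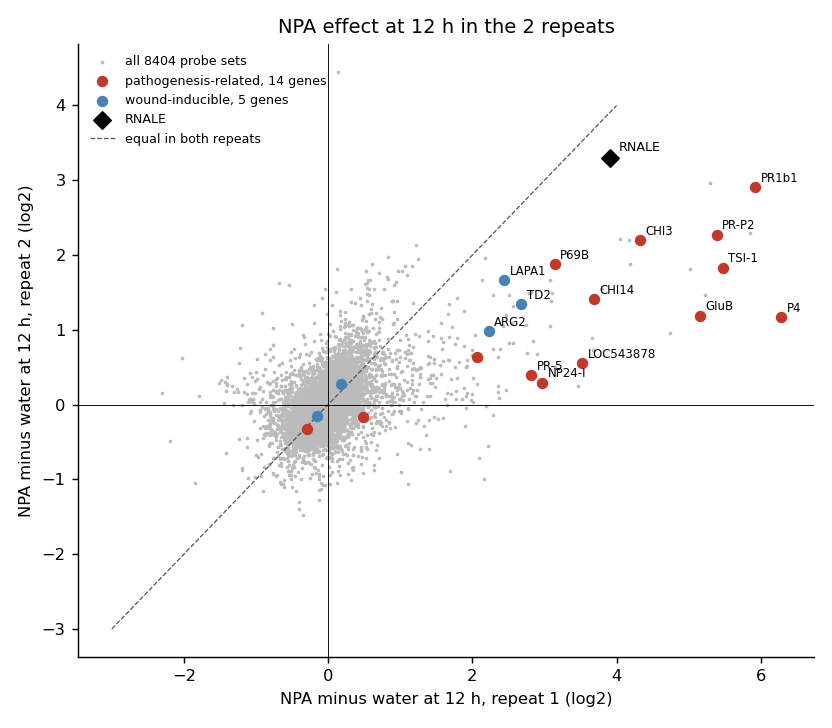
NPA minus water difference (log2) of each of the 8404 probe sets at 12 h in repeat 1 (x axis) and in repeat 2 (y axis), with PR genes in red, wound-inducible genes in blue, RNALE as a black diamond and a dashed line of equal values. Most PR genes lie far right of that line (PR1b1 at 5.92 and 2.91), and RNALE lies nearest to it among the labelled genes (3.91 and 3.30).

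RNALE belongs to a list of 5 phosphate starvation and transport genes, of which it alone was called. PAP1 stood at 9.19 and 8.49 on the NPA arrays and at 8.04 and 7.80 on the water arrays (mean difference 0.92, SE 0.27, adjusted p = 0.46). The NPA values were higher in both repeats and did not overlap the water values. PT1, a phosphate transporter, stood at 11.50 and 10.72 under NPA and at 10.75 and 10.33 under water, and there the groups overlapped. Of the remaining members rnalx, another ribonuclease of the S-like family, differed by 0.08 on average. TPSI1, a phosphate starvation transcript, went opposite ways, by -0.59 in repeat 1 and 0.36 in repeat 2. The list median was 0.57, and 2 of the 5 had NPA arrays above both water arrays, against 17.1% of all probe sets.

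PR genes were among those with the largest differences. Of 14 PR genes with a probe set 0 were called (0.0119% of all probe sets were called higher), 12 had NPA arrays above both water arrays (17.1% of all), and 8 were at least 2-fold higher in both repeats (0.559% of all). Their median difference was 2.53, beside -0.03 for all probe sets. It was 3.61 in repeat 1 and 1.18 in repeat 2. This list was drawn up with earlier results known, and earlier results already showed its direction, so its counts are a description.

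Among the PR-1 and PR-4 proteins all 3 genes were at least 2-fold higher in both repeats. PR1b1, a PR-1 protein, stood at 13.40 and 10.42 on the NPA arrays and at 7.48 and 7.51 on the water arrays. The water arrays were nearly equal while the NPA arrays differed by 2.98. The mean difference of 4.42 (SE 1.25, adjusted p = 0.46) did not pass. P4, another PR-1 protein, stood at 11.82 and 6.22 under NPA and at 5.54 and 5.05 under water, so that its difference was 6.28 in repeat 1 and 1.17 in repeat 2. PR-P2, a PR-4 protein, stood at 11.97 and 8.0 under NPA and at 6.58 and 5.73 under water. In all 3 genes the lower NPA array, that of repeat 2, still lay above both water arrays.

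Chitinases and glucanases, which cut fungal cell wall polymers, followed the same pattern apart from 1 gene. CHI3, a chitinase, stood at 13.31 and 10.14 on the NPA arrays and at 8.98 and 7.94 on the water arrays (mean difference 3.27, SE 1.12, adjusted p = 0.49). CHI14 stood at 8.86 and 6.47 under NPA and 5.17 and 5.06 under water, and CHI9 at 11.04 and 9.88 under NPA and 8.98 and 9.24 under water. These 3 chitinases had separate groups, with the larger difference in repeat 1. GluB, a beta-1,3-glucanase, stood at 12.09 and 9.08 under NPA and at 6.94 and 7.89 under water, differences of 5.15 and 1.19. CHI17, also a chitinase, stood at 9.89 and 9.45 under NPA and at 10.19 and 9.77 under water. Its differences were -0.30 and -0.32 in the repeats under the deposited normalization, and its groups overlapped.

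The PR-5 and PR-10 proteins also differed more in repeat 1. TSI-1, a PR-10-type protein, stood at 9.06 and 5.31 on the NPA arrays and at 3.59 and 3.48 on the water arrays, differences of 5.47 and 1.83. NP24-I, an osmotin-like PR-5 protein, stood at 9.60 and 7.24 under NPA and at 6.63 and 6.95 under water. LOC543878, which came into the PR-5 list by a synonym, stood at 10.33 and 7.50 under NPA and 6.81 and 6.95 under water. For both, repeat 2 gave a difference under 1 (0.29 and 0.55), while repeat 1 gave 2.97 and 3.52. Of the subtilisin-like proteases, P69B, a subtilase induced in infected tomato, stood at 11.41 and 9.65 under NPA and at 8.27 and 7.77 under water. P69A, its close relative, stood at 9.83 and 9.37 under NPA and 9.34 and 9.53 under water, so the groups overlapped. SBT1 had differences of -0.32 and -0.78 under the deposited normalization, and the median of the 6 subtilases was 0.09. Probe sets of related genes may bind more than 1 transcript, and which of these do was not tested.

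**Figure D3:**
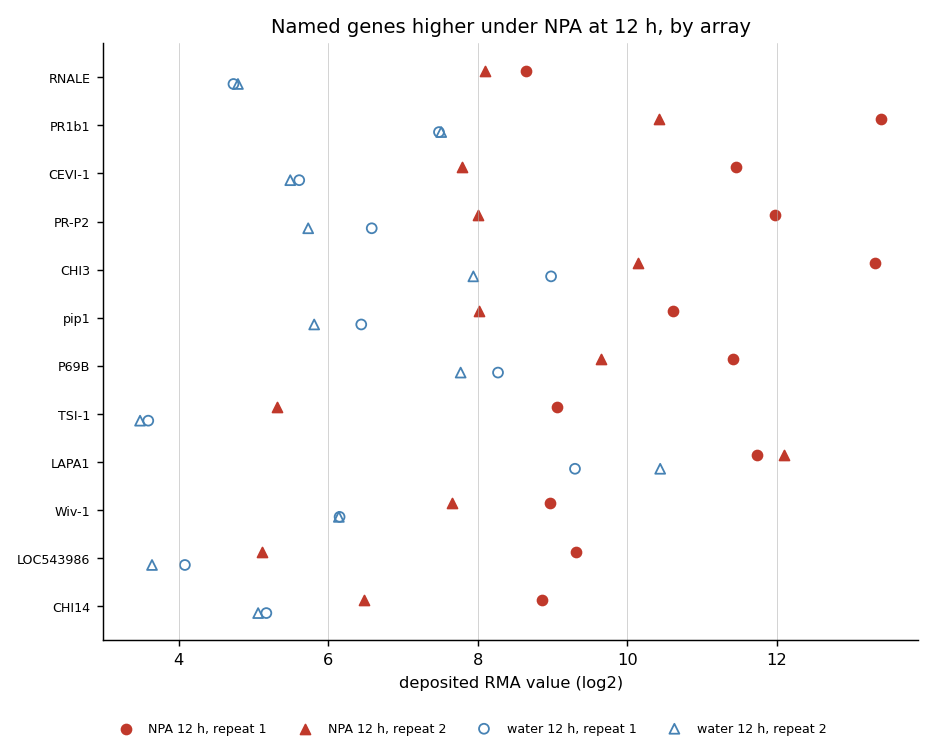
Deposited log2 value on each 12 h array for the 12 named genes with the largest smaller difference of the repeats, filled red symbols for NPA and open blue symbols for water, circles for repeat 1 and triangles for repeat 2. In most rows the water symbols lie closer together (7.48 and 7.51 for PR1b1) than the NPA symbols (13.40 and 10.42), and LAPA1 shows the opposite arrangement.

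Several genes outside the PR list had the same arrangement of arrays. CEVI-1, a peroxidase known from viroid-infected tomato, stood at 11.46 and 7.79 on the NPA arrays and at 5.61 and 5.49 on the water arrays (mean difference 4.08, SE 1.12, adjusted p = 0.46). The gene pip1 stood at 10.61 and 8.01 under NPA and at 6.44 and 5.81 under water. For LOC543986 the values were 9.31 and 5.11 under NPA and 4.08 and 3.64 under water. For all 3 genes the NPA arrays lay further apart than the water arrays, and the NPA array of repeat 1 was by far the highest. THT1-3, a tyramine hydroxycinnamoyltransferase, which makes the amides that stiffen cell walls, stood at 8.46 and 6.37 under NPA and at 5.38 and 5.32 under water. THT1-3 stood apart from the other 4 genes of its list, whose mean differences lay between -0.05 and 0.22. Of the unnamed probe sets the first by the size of the smaller difference stood at 11.75 and 8.32 under NPA against 6.45 and 5.36 under water, and the next at 11.73 and 10.84 under NPA against 7.68 and 8.63 under water. None of these was called.

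Genes of sugar use and transport held a few of the higher values. Wiv-1, a cell wall invertase that splits sucrose outside the cell, stood at 8.97 and 7.65 on the NPA arrays and at 6.15 and 6.14 on the water arrays. Its mean difference was 2.17 (SE 0.49, adjusted p = 0.46), with separate groups. HT2, a hexose transporter, stood at 9.38 and 6.85 under NPA and at 6.64 and 5.78 under water. PPCK1, the kinase of phosphoenolpyruvate carboxylase, stood at 8.14 and 7.46 under NPA and 7.28 and 6.77 under water, a mean difference of 0.78 with separate groups. The medians of the whole lists were small, 0.10 for the 10 carbon metabolism genes and 0.24 for the 12 sugar and amino acid transporters. NPA arrays lay above both water arrays for 2 carbon genes, Wiv-1 and PPCK1, and for 5 transporters, HT2 among them. Of all probe sets 17.1% did so.

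The wound-inducible genes were higher too, and their repeats differed in another way. LAPA1, leucine aminopeptidase A, stood at 11.74 and 12.10 on the NPA arrays and at 9.30 and 10.44 on the water arrays (mean difference 2.05, SE 0.36, adjusted p = 0.46). TD2, threonine deaminase, stood at 10.59 and 10.63 under NPA and at 7.91 and 9.29 under water. The brightest probe set of ARG2, an arginase, stood at 10.83 and 11 under NPA and at 8.60 and 10.02 under water, and the other 2 probe sets of ARG2 were above water in both repeats as well. For these 3 genes the NPA arrays were closer to each other than the water arrays, and the water array of repeat 1 was the lower one, with repeat 1 minus repeat 2 differences of -1.14 for LAPA1, -1.38 for TD2 and -1.42 for ARG2. Their relatives did not follow. LAPA2 differed by 0.18 and 0.27 in the repeats, and ARG1 by -0.16 and -0.15. Over the 5 genes of the list the median difference was 1.61, with 2.23 in repeat 1 and 0.98 in repeat 2, and 4 had NPA arrays above both water arrays, against 17.1% of all probe sets.

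The median over genes put numbers on this contrast. Between repeat 1 and repeat 2 the 14 PR genes differed by a median of 2.61 on the NPA arrays and 0.04 on the water arrays. The 5 wound genes differed by -0.04 on the NPA arrays and by -1.14 on the water arrays. The difference between the lists in this respect was not tested.

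Salicylic acid, jasmonate and ethylene genes had small differences at 12 h. NPR1, a salicylic acid receptor, stood at 7.68 and 8.01 on the NPA arrays and at 7.16 and 7.34 on the water arrays (mean difference 0.60, SE 0.16, adjusted p = 0.46). Its groups were separate and its repeats gave 0.52 and 0.67. The 10 jasmonate and lipoxygenase genes had a median of 0.05. Among them AOS, allene oxide synthase, stood at 4.66 and 4.12 under NPA and at 3.76 and 4.09 under water, LEJA1 was higher by 0.20 and 0.70, opr2, with the largest mean difference of the list (0.64), by 0.23 and 1.05, and the lipoxygenase loxC by 0 and 0.95. The groups were separate for LEJA1 and opr2 and overlapped for loxC. For AOS they were separate only just, with differences of 0.90 in repeat 1 and 0.03 in repeat 2. COI1, the jasmonate receptor, had differences of -0.52 and -0.35 under the deposited normalization, and its groups overlapped.

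Of 17 ethylene genes, 8 had NPA arrays below both water arrays and 3 above, against 21.0% and 17.1% of all probe sets. Their median was -0.18 under the deposited normalization and 0.70 when scaled on the Bacillus controls. ETR6, an ethylene receptor, stood at 5.29 and 5.10 on the NPA arrays and at 5.62 and 5.71 on the water arrays (mean difference -0.47, SE 0.13, adjusted p = 0.46). ETR5, another receptor, stood at 8.81 and 8.62 under NPA and at 9.14 and 9.18 under water. EIN2 and EIL1, which carry the ethylene signal further, also stood below water in both repeats, with differences of -0.25 and -0.58 and of -0.31 and -0.27. In each of these 4 genes the groups were separate, and in the Bacillus scaling ETR6 stood at 0.40 and ETR5 at 0.43. CTR4, a kinase of the same pathway, stood above water, by 0.29 and 0.50.

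The medians of the transcription factor lists were near 0, at -0.03 for 14 ERF factors and 0.01 for 6 WRKY factors. PTI5, an ERF factor that acts with the Pto resistance kinase, stood at 8.5 and 5.96 on the NPA arrays and at 5.74 and 5.27 on the water arrays, differences of 2.76 and 0.69. Its NPA arrays lay above both water arrays, that of repeat 2 only just, and its mean difference of 1.73 (SE 0.92, adjusted p = 0.59) did not pass. It was the only 1 of the 14 ERF factors with separate groups, against 17.1% of all probe sets with NPA arrays above and 21.0% below. Below water as deposited, with overlapping groups, stood CBF1 (-0.58), ERF3 (-0.57), DREB2 (-0.55) and EREB (-0.43), all above 0 when scaled on the Bacillus controls.

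Genes of carotenoid and abscisic acid synthesis went both ways. FLACCA, the molybdenum cofactor sulfurase needed for the last step to abscisic acid, stood at 5.92 and 6.10 on the NPA arrays and at 5.18 and 4.95 on the water arrays (mean difference 0.95, SE 0.17, adjusted p = 0.46). NCED1, the 9-cis-epoxycarotenoid dioxygenase of the same pathway, stood at 7.24 and 8.04 under NPA and at 7.64 and 9.34 under water, with differences of -0.40 and -1.30 and overlapping groups. The 9 genes had a median of 0.14. Of 7 auxin genes, ARPI stood highest, at 12.88 and 12.91 under NPA and 12.15 and 11.62 under water, a mean difference of 1.01 (SE 0.20, adjusted p = 0.46). IAA7, an Aux/IAA repressor, lay at the other end, with 7.44 and 7.68 under NPA and 8.09 and 8.22 under water (mean difference -0.60). The auxin list had a median of -0.21 as deposited and of 0.67 when scaled on the Bacillus controls.

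**Figure D4:**
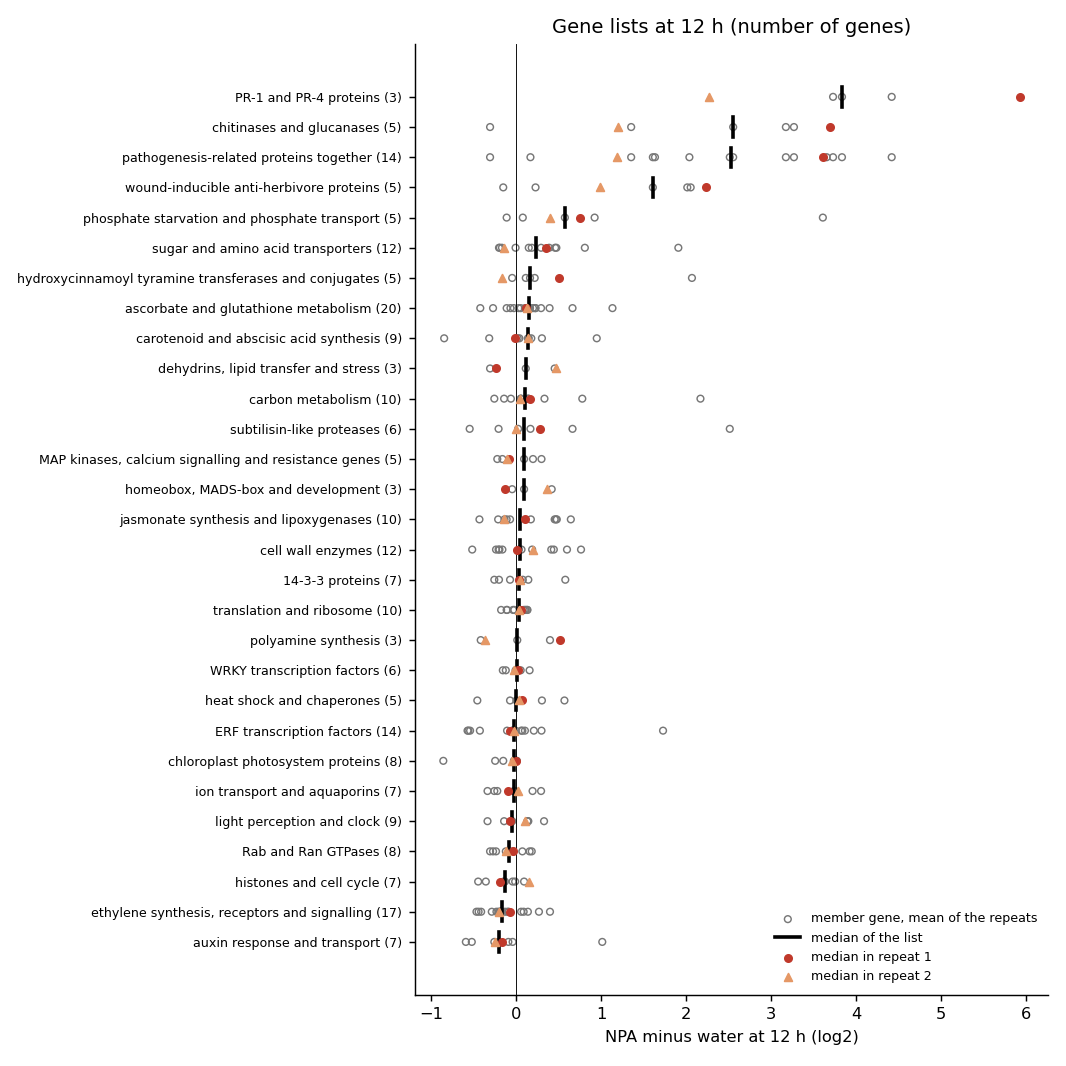
NPA minus water difference at 12 h (log2) of each member gene (open circles, mean of the repeats) for the gene lists with at least 3 genes, with black bars for list medians, red circles for the median in repeat 1 and orange triangles for that in repeat 2. PR and wound lists lie to the right (medians 2.53 and 1.61) and most other lists lie near 0 under the deposited normalization, and scaling on the Bacillus controls would move all of them to the right, those below 0 to above it.

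The values below water were small. The largest was that of LOC544187, which stood at 11.05 and 11.69 on the NPA arrays and at 12.89 and 12.74 on the water arrays (mean difference -1.45, SE 0.26, adjusted p = 0.46). It was the 1 probe set at least 2-fold lower in both repeats, and its groups were widely separate. CAB5, a chlorophyll a/b-binding protein of the light-harvesting antenna, stood at 8.05 and 8.72 under NPA and at 8.94 and 9.55 under water, differences of -0.89 and -0.83. The other antenna genes CAB4 and CAB6A had mean differences of -0.25 and -0.16 with overlapping groups, and PSBO, PSBP, PsbQ, PSBR and PETE, which are near the top of the scale, lay between -0.03 and 0.01. Scaled on the Bacillus controls CAB5 stood at 0.01, while LOC544187 stayed below 0.

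Other genes below water belonged to several pathways. GMP, GDP-mannose pyrophosphorylase of ascorbate synthesis, had 2 probe sets with mean differences of -0.42 and -0.43 and separate groups on each. CHS1, chalcone synthase of flavonoid synthesis, stood at 5.82 and 6.58 on the NPA arrays and at 6.60 and 6.92 on the water arrays. The higher NPA array lay only just below the lower water array. MT3, CIP2a, VPE5 and Klc-I2I had mean differences between -0.46 and -0.39 on the probe sets named by the rule. Of the unnamed probe sets, 1 stood at 10.11 and 10.12 under NPA and at 11.04 and 11.08 under water, and another at 6.69 and 5.96 under NPA and 7.70 and 6.93 under water. The first of these had nearly equal repeats in each group, yet did not pass (mean difference -0.95, SE 0.11, adjusted p = 0.25). Scaled on the Bacillus controls GMP, CHS1, MT3, CIP2a, VPE5, Klc-I2I and IAA7 stood above water, by 0.28 to 0.49.

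**Figure D5:**
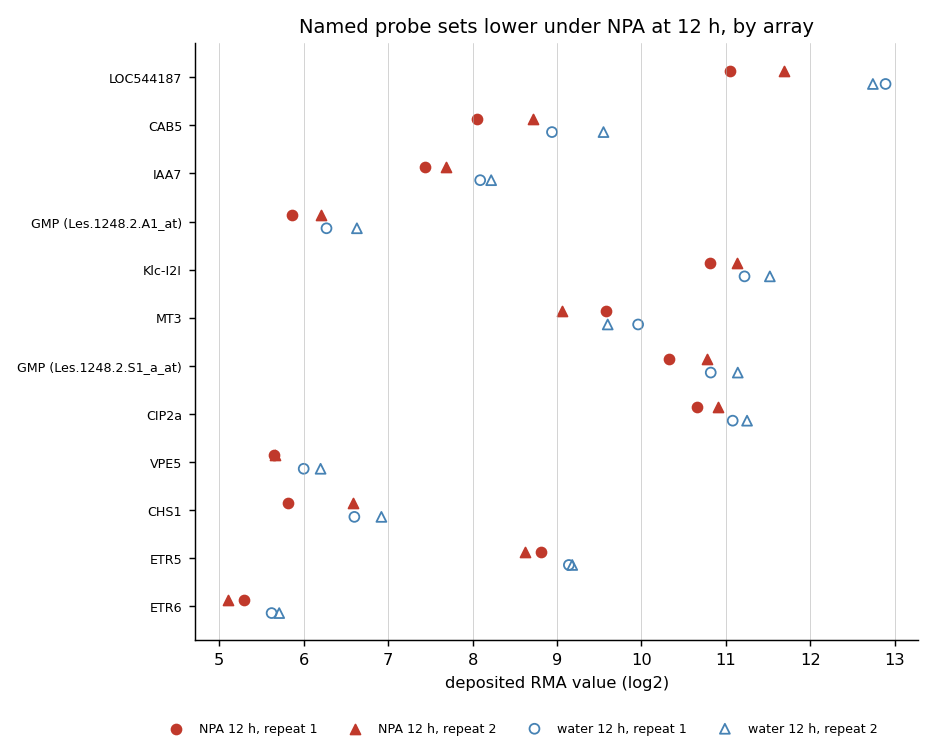
Deposited log2 value on each 12 h array for the 12 named probe sets lower under NPA with the largest smaller difference of the repeats, filled red symbols for NPA and open blue symbols for water, circles for repeat 1 and triangles for repeat 2. LOC544187 lies furthest from water (11.05 and 11.69 against 12.89 and 12.74), and under scaling on the Bacillus controls all others in the plot would lie above water, CAB5 by 0.01.

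Most remaining lists had medians close to that of all probe sets. They were 0.15 for 20 ascorbate and glutathione genes, 0.05 for 12 cell wall enzymes, 0.03 for 10 translation genes, 0.04 for 7 14-3-3 proteins and 0 for 5 heat shock genes. Lists of 3 genes had medians of 0.01 (polyamine synthesis), 0.09 (homeobox and MADS-box) and 0.11 (dehydrins and lipid transfer). Apart from the PR-5 list, lists of 2 genes lay between -0.44, for the chalcone synthases CHS1 and CHS2, and 0.38, for CAT2 and ODD of the redox list, and the chalcone synthases stood at 0.43 when scaled on the Bacillus controls. Medians were -0.05 for 9 light and clock genes, -0.09 for 8 Rab and Ran GTPases, -0.03 for 7 ion transport genes and -0.14 for 7 histone and cell cycle genes, all of which lay above 0 when scaled on the Bacillus controls. The median of 5 MAP kinase, calcium and resistance genes was 0.09 over the means, but -0.09 and -0.11 within the repeats. A single member stood out in the ascorbate and glutathione list, ctu1, a tau-class glutathione transferase, with 6.71 and 5.69 under NPA and 4.95 and 5.19 under water. Among the cell wall enzymes TBG4, a beta-galactosidase, was highest, at 8.04 and 8.87 under NPA and 7.53 and 7.86 under water.

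Some genes went opposite ways in the repeats. SODCP.2, a plastid superoxide dismutase, stood at 10.04 and 9.36 on the NPA arrays and at 10.96 and 8.14 on the water arrays, differences of -0.92 and 1.22. LOC544158 had differences of -1.20 and 1.06, LOC543701 of 1.27 and -0.60, and TPRP-F1 of -1.24 and 0.56. Their mean differences, between -0.34 and 0.34, hide this.

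The second question was where the effect at 12 h differed from that at 6 h. No probe set had a difference of effects past the threshold (limma, adjusted p under 0.05), while 1123 (13.4%) had an unadjusted p under 0.05. Of the 47 probe sets at least 2-fold higher in both repeats at 12 h, 32 were so at 6 h too, which is 68.1% of the 12 h set and 20.6% of the 155 in the 6 h set (1.84% of all). The 12 h set was thus the smaller, and the difference in number was not tested. For RNALE the effects were 3.61 at 12 h and 2.75 at 6 h (difference 0.86, adjusted p = 0.40). PR1b1 had 4.42 at 12 h and 3.15 at 6 h, CHI14 had 2.55 and 3.25, and P69B had 2.51 and 2.78. LAPA1 had 2.05 at 12 h and 1.68 at 6 h, and TD2 had 2.01 and 1.96.

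Other genes had effects of unlike size at the 2 times. PTI5 had 1.73 at 12 h and 3.98 at 6 h. AOS had 0.47 at 12 h and 2.36 at 6 h, and ODC, ornithine decarboxylase of polyamine synthesis, had 0.01 and 1.69. The 12 h mean of ODC hides opposite signs in the repeats, 0.51 and -0.49. SPM1 had -0.16 at 12 h and 1.81 at 6 h, with repeats of -0.19 and -0.13 and of 1.80 and 1.81. In the other direction TSI-1 had 3.65 at 12 h and 1.06 at 6 h, CEVI-1 had 4.08 and 1.99, and LOC100037511 had 1.09 and -1.63. PDS, phytoene desaturase of carotenoid synthesis, had 0.30 at 12 h and -0.58 at 6 h, LOC543829 had 0.94 and -0.80, and MFP1 had 0.52 and -0.89. The smallest adjusted p among these was that of SPM1 (limma, adjusted p = 0.0761), and the remaining ones lay between 0.18 and 0.63.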

How the data were processed

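Leaf RNA from 8 pools of 5 plants was hybridized to 1 array each, in 4 groups of 2 by treatment and time. The authors' deposited log2 values were made with RMA, per the submitters' processing notes; no source used here gives its version or settings, and the log2 scale was inferred from the range of the values. Their number of arrays limits precision, and without detection calls absence could not be called. No array column was left unused (0). Symbols came from platform annotation and, for 739 of 753 named probe sets, were updated from a RefSeq table of assembly SLM_r2.1.

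From these values 4 group means were fitted to all 8 arrays with lmFit and eBayes of limma 3.58.1 (R 4.3.3) (4 residual degrees of freedom, prior 2.55, prior SD 0.163), with contrasts NPA minus water at 12 h and the difference of this effect from that at 6 h. Benjamini-Hochberg adjustment ran over 8404 probe sets, and an adjusted p under 0.05 was called. P-values of this fit rest on the spread between the pools of a group. Those pools came from separate runs of the full experiment, so that spread includes any shift between runs. Repeats were paired by number because the series design text says that the whole set of experiments was repeated, and same-numbered arrays deviated together (correlations across probe sets between 0.316 and 0.596 over all pairs of groups, 0.571 for NPA and water at 12 h). The fit without the block is the main one.

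The comparison, members, lists and tests were chosen with earlier results of these data known. Of 30 lists, 27 had a member; 8 more were added after gene symbols had been seen, and 4 false matches were removed. Lists were matched by symbol and synonym, with 1 probe set per gene (highest mean), and are described without a test. Named genes are probe sets past the threshold; the 12 named probe sets in each direction with separate groups and the largest smaller difference of the repeats; up to 6 members per list by size; 4 with opposite signs; 2 unnamed probe sets per direction; and 4 per direction for the difference between times. Genes added for tissue identity or to show a relative are outside this rule. The fit was run on simulated data with noise drawn separately for each array. No shift shared by the arrays of a repeat was simulated, so its behaviour under such shifts was not tested. Alternatives were the block, quantile normalization, median centring, a filter at the median level, an intensity trend, array weights, the 12 h arrays alone, other fold limits, leaving out each array and, added after seeing the data, scaling on the Bacillus controls. Plots used matplotlib 3.10.9 (Python 3.11.15).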

Additional observations from a re-analysis of the deposited data

Results flagged for a closer look

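Effects at 12 h and 6 h lay on opposite sides of 0 in both repeats for 4 gene lists and for the Bacillus controls, and none of these differences was tested. The median difference between the effects, 12 h minus 6 h, was -0.46 for ethylene genes, -0.56 for ERF factors and -0.31 for MAP kinase, calcium and resistance genes. Each repeat's median of these lists was below water at 12 h and above it at 6 h. The 12 h medians were small, -0.08 and -0.20 for ethylene genes, -0.08 and -0.03 for ERF factors and -0.09 and -0.11 for the MAP kinase list. All probe sets had -0.04 and -0.02. Over the gene means the MAP kinase list had a 12 h median of 0.09. Scaled on the Bacillus controls the 12 h medians of these lists were 0.695, 0.845 and 0.96. For cell wall enzymes, which went the other way, the difference between the effects was 0.14, with 12 h medians of 0.005 and 0.19. The Bacillus controls had a median NPA minus water difference of -0.86 at 12 h, against medians of 0.10 and 0.56 in the repeats at 6 h. Their part in the shifts of the lists was not tested.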

How the results depend on the processing

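RNALE stayed higher under NPA in every alternative that kept it (the filter at the median level removed it), but its call was lost with the replicate block (3.61, adjusted p = 0.158), with array weights (3.61, 0.0815), with only the 12 h arrays (3.61, 0.391) and without any 1 array other than NPA 12 h replicate 2. Over the arrays left out in turn its difference was 3.33 to 3.88. Its adjusted p was 0.181 without either NPA 6 h array, 0.0878 without either water 6 h array, 0.452 and 0.123 without water 12 h replicates 1 and 2, 0.314 without NPA 12 h replicate 1 and 0.0444 without NPA 12 h replicate 2. The count of 1 called at 12 h became 0 with the replicate block, with only probe sets at or above the median level, with array weights and with only the 12 h arrays, and 2 with an intensity trend, where an unnamed probe set (mean difference -0.95) was called lower (adjusted p = 0.0359). It ranged from 0 to 3 over the arrays left out, 3 without NPA 12 h replicate 2 and 0 without each of the others. The count of 0 for the difference between times became 2 with quantile normalization, 1 with only probe sets at or above the median level and 1 with an intensity trend, SPM1 among them each time, and ranged from 0 to 1, with 1 without NPA 6 h replicate 1. The counts at least 2-fold higher and lower in both repeats, 47 and 1, became 166 and 36 at 1.5-fold and 16 and 0 at 3-fold, and quantile normalization made the lower count 2. Scaling on the Bacillus controls, chosen after seeing the data, moved most. It gave 6152 called higher and 0 lower at 12 h, 5685 called for the difference between times, and 1269 probe sets at least 2-fold higher and 0 lower in both repeats. It reversed GMP (0.45 and 0.445), CAB5 (0.01), CIP2a (0.485), ETR6 (0.40), ETR5 (0.425), MT3 (0.41), CHS1 (0.31), VPE5 (0.425), IAA7 (0.275), Klc-I2I (0.47) and the difference between times of krp2 (0.3006). Where no construction of an alternative shows it, the cause was not tested. The block changed no other call than that of RNALE. The motifs planned for promoters were not run. Signal over background was not used here.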

Other observations

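The control probe sets at the ends of 3 tomato transcripts gave a view of RNA quality. For GAPDH the 3' minus 5' difference was 0.42 and 0.29 on the NPA arrays and 0.43 and 0.18 on the water arrays at 12 h. For EF1a it was 0.38 and 0.31 under NPA and 0.41 and 0.19 under water, and for actin 0 and -0.12 under NPA and 0 and 0.11 under water. The NPA and water arrays of repeat 1 were thus close to each other for all 3 transcripts. The 2 NPA arrays correlated at 0.968 over all probe sets and the 2 water arrays at 0.979.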
